A study of Mus musculus with 6 samples.

Results

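Semaphorins are extracellular guidance ligands, plexins are their transmembrane receptors, and neuropilins are co-receptors for the secreted class. The 31 genes described here were all RefSeq protein-coding genes of the mouse genome whose symbols name a semaphorin of classes 3 to 7, a plexin, or neuropilin 1 or 2, out of 21887 protein-coding genes in all. They comprised 7 secreted ligands (class 3), 12 membrane ligands (classes 4 to 6), 1 GPI-anchored ligand (Sema7a), 9 plexins and 2 neuropilins. Each gene was examined over its body plus 20 kb on each side. These windows held 312 of the 85174 open regions that the 6 libraries yielded, and no region fell in the windows of 2 members.

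Semaphorins bind the extracellular part of plexins, whose cytoplasmic part acts on small GTPases and thereby on the actin cytoskeleton and on integrin adhesion. Most class 3 ligands need a neuropilin beside the plexin, whereas membrane-bound semaphorins generally bind plexins directly. In blood vessels the system is known for patterning endothelial sprouts, through Sema3e and Plxnd1, and for dividing the cardiac outflow tract, through Sema3c, and neuropilins also bind VEGF.

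The assay was ATAC-seq, which finds open chromatin by the insertions of the Tn5 transposase, in primary mouse vascular smooth muscle cells (VSMCs). One group had 3 libraries from cells transfected with siRNA against Arid3a, a transcription factor that binds AT-rich DNA, and the other had 3 libraries from negative control cells. The knockdown libraries are labelled si-Arid3a#1, #2 and #3; if these are different siRNAs, which the labels do not spell out, the spread of that group includes differences between them. The question was which open chromatin differs when Arid3a is lowered. The labels' protocols give a time of 24 h after transfection, although the design text speaks of knockdown cell lines. The labels also describe Ang II for 36 h without naming the libraries that received it, so it entered no comparison. Separate cultures are not mentioned in the labels, so the spread behind each p-value is that between these 6 samples and may be technical. Accessibility does not measure Arid3a RNA or protein, and the knockdown itself was not checked here.

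The knockdown libraries held 50543, 51279 and 41629 peaks and the control libraries 51330, 33248 and 52091. Depth, estimated from the peak values, was 1.9, 1.98 and 1.19 megatags in knockdown libraries and 1.93, 0.95 and 2 megatags in control libraries. Knockdown replicate 3 and control replicate 2 were thus the shallowest of their groups, and the part of depth in a missing peak was not tested. Of 6 smooth muscle markers, Acta2, Tagln and Smtn had a promoter peak in 6 of 6 libraries, Cnn1 in 4, and Myh11 and Des in none. No promoter of 6 epithelial or 6 endothelial markers was open in 6 of 6 libraries, while those of 2 of 6 fibroblast markers (Col1a1, Col1a2) were.

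Promoter sequences were found by gene ID in a RefSeq table (GRCm38.p6, the assembly of mm10) for 26 of the 31 genes, with 37 annotated starts. The members without an entry were Plxna1, Plxna4, Sema3b, Sema3f and Sema6a. The 200 bases before the start are printed below, 5′ to 3′ on the gene's own strand, for 7 genes. Sema3c and Sema3d were chosen as secreted ligands with a promoter peak in every library but unlike base composition, Sema3a and Plxnc1 as a ligand and a receptor with no promoter peak in any, and Plxnd1, Nrp1 and Nrp2 as the vascular receptors. Capitals mark matches, on either strand, to GGGCGG (a GC box, CCGCCC on the other strand) or to ATTAAA (core letters of the Arid3a motif, TTTAAT on the other strand). The AP-1 letters TGANTCA were also searched and had no match in these stretches. In Nrp2, 2 of the 4 GC boxes share 1 base. The stretches lie at chr5:17574616-17574815 (Sema3c, plus strand), chr5:12382966-12383165 (Sema3d, plus), chr5:13396584-13396783 (Sema3a, plus), chr10:94944846-94945045 (Plxnc1, minus), chr6:115995006-115995205 (Plxnd1, minus), chr8:128358873-128359072 (Nrp1, plus) and chr1:62703117-62703316 (Nrp2, plus).
Sema3c: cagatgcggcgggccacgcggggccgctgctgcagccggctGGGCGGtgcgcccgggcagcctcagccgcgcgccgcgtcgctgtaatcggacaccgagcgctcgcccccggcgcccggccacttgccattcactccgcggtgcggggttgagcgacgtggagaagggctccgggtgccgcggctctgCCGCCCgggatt
Sema3d: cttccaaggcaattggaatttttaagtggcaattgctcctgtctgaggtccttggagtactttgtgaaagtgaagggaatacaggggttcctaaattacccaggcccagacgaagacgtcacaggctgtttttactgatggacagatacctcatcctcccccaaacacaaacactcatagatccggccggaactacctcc
Sema3a: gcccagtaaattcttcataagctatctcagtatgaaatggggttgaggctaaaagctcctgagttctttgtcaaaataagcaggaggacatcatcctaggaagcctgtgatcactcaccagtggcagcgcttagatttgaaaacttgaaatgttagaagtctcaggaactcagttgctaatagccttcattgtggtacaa
Plxnc1: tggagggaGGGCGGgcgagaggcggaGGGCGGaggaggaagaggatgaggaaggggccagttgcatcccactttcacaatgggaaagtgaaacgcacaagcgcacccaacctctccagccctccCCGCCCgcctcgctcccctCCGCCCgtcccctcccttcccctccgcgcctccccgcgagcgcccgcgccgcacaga
Plxnd1: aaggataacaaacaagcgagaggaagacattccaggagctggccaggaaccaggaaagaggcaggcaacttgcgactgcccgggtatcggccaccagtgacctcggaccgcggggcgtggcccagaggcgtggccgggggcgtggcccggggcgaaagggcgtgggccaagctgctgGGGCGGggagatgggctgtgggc
Nrp1: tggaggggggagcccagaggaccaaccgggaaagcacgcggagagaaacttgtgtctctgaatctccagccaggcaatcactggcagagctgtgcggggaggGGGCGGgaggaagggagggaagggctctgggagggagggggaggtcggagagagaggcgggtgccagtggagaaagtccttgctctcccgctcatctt
Nrp2: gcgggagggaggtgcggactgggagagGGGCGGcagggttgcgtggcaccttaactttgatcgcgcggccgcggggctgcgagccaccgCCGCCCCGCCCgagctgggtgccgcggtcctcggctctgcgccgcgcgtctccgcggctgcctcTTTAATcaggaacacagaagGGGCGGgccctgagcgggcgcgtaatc

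The GC content of these stretches was 77% for Sema3c, 48% for Sema3d, 42% for Sema3a, 70.5% for Plxnc1, 68% for Plxnd1, 64% for Nrp1 and 73% for Nrp2. Sema3d was thus open in 6 of 6 libraries at a GC content close to that of Sema3a, and Plxnc1 closed in 6 of 6 at a GC content above that of Nrp1. The only start that the table gives for Sema3a lies inside the gene, 2.55 kb from an open region described below. In windows of 300 bases (250 before and 50 after a start), GGGCGG occurred at 27 of the 37 member starts (73%), against 46.2% of 21263 starts of all genes. ATTAAA occurred at 3 member starts (8.11%, against 11.7% of all starts), namely 1 start each of Sema6d, Plxnb1 and Nrp2, and TGANTCA at 3 (8.11%, against 6.99%). The 13 member starts open in 6 of 6 libraries had a median GC content of 67%, and the 11 open in none had 55.3%. Over all genes these medians were 61.7% and 48.3%. These matches describe letters in a window and show no binding.

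A region was counted as present in a library where 1 of that library's peaks overlapped it by at least 1 base. Of the 312 regions, 67 (21.5%) were present in 6 of 6 libraries, against 24.4% of all regions, and 107 (34.3%) were present in 1 library only, against 33.5%. Both shares lay near those of the genome as a whole. Semaphorin, plexin and neuropilin genes were long, with a median of 40.5 kb against 17.2 kb over all genes. Their windows held a median of 9 regions, against 4, or 7.32 per 100 kb, against 5.48. Plxnb3 had the fewest regions (2) and Sema5a the most (36). Across the 31 genes the number of regions went with gene length (Pearson r = 0.585 with log10 length, Spearman rho = 0.511), as over all genes (0.499 and 0.46). Regions per 100 kb fell with length among the members (rho = −0.649), whereas over all genes rho was 0.0538. Long and short windows share the same fixed flanks, and these are descriptions across genes, which are not replicates.

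**Figure D1:**
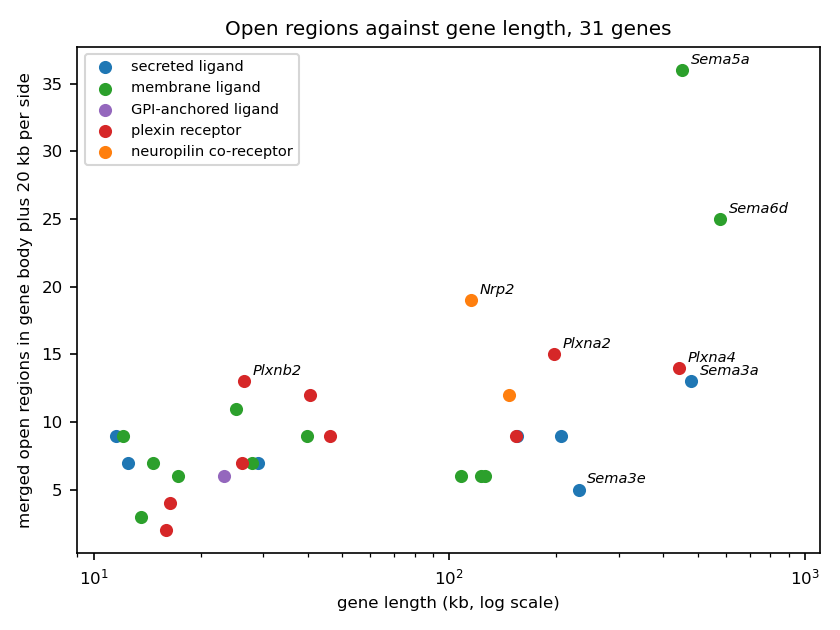
Each point is 1 of the 31 genes, with gene length in kb on a log axis and the number of merged open regions in the gene body plus 20 kb per side on the other axis, coloured by role. Sema5a had 36 regions over 452 kb, while Sema3e had 5 over 231 kb and Plxnb2 13 over 26.5 kb.

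Of the 312 regions, 33 lay within 1000 bases of the member's own start (or of either gene end for the 5 genes without a listed start), 180 lay inside the gene away from it, and 99 lay in the flanks. Of the 67 regions present in every library, which are part of these 312, 12 lay at the member's own promoter, 28 inside the gene away from it and 27 in the flanks. Of those 27, 16 lay at the promoter of another protein-coding gene. Such neighbours supplied the constitutive regions around several compact genes, including the promoters of Naa80, Ifrd2 and Gnai2 beside Sema3b, Ankrd23 and Ankrd39 beside Sema4c, Atrip and Ccdc51 beside Plxnb1, and Idh3g and Ssr4 beside Plxnb3. The gene table does not separate exons, introns or UTRs, so places inside a gene were not divided further. Placement was not set beside that of regions over all genes and was not tested, so nothing particular to the family can be read from it.

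The promoters of 13 members (41.9%) had a peak in 6 of 6 libraries, against 37.4% of all genes, 7 (22.6%) had one in none, against 41.2%, and 11 (35.5%) had one in 1 to 5 libraries, against 21.4%. The open group held the ligands Sema3c, Sema3d, Sema3g, Sema4b, Sema4c, Sema5a, Sema6b and Sema6c, the plexins Plxna2, Plxna3, Plxnb2 and Plxnd1, and Nrp1. The closed group was Sema3a, Sema3b, Sema4f, Sema6a, Sema6d, Plxnb3 and Plxnc1. All of these but Sema6a had at least 1 region present in 6 of 6 libraries elsewhere in the window. Of the 11 promoters open in some libraries, 3 had a peak in more knockdown than control libraries (Sema3e, Sema3f, Sema5b), 6 in fewer (Sema4a, Sema4g, Sema7a, Plxna1, Plxna4, Nrp2) and 2 in as many (Sema4d, Plxnb1). No member's promoter was open in all knockdown and no control libraries, as for 0.119% of all genes, or in all control and no knockdown libraries, as for 0.101%. Among the 26 members with a listed start, 13 were open in 6 of 6 libraries, against 38.5% of all such genes, and 5 were closed in all, against 41.1%. None of the 5 members judged by their gene ends had a peak there in 6 of 6 libraries, against 33% of such genes.

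**Figure D2:**
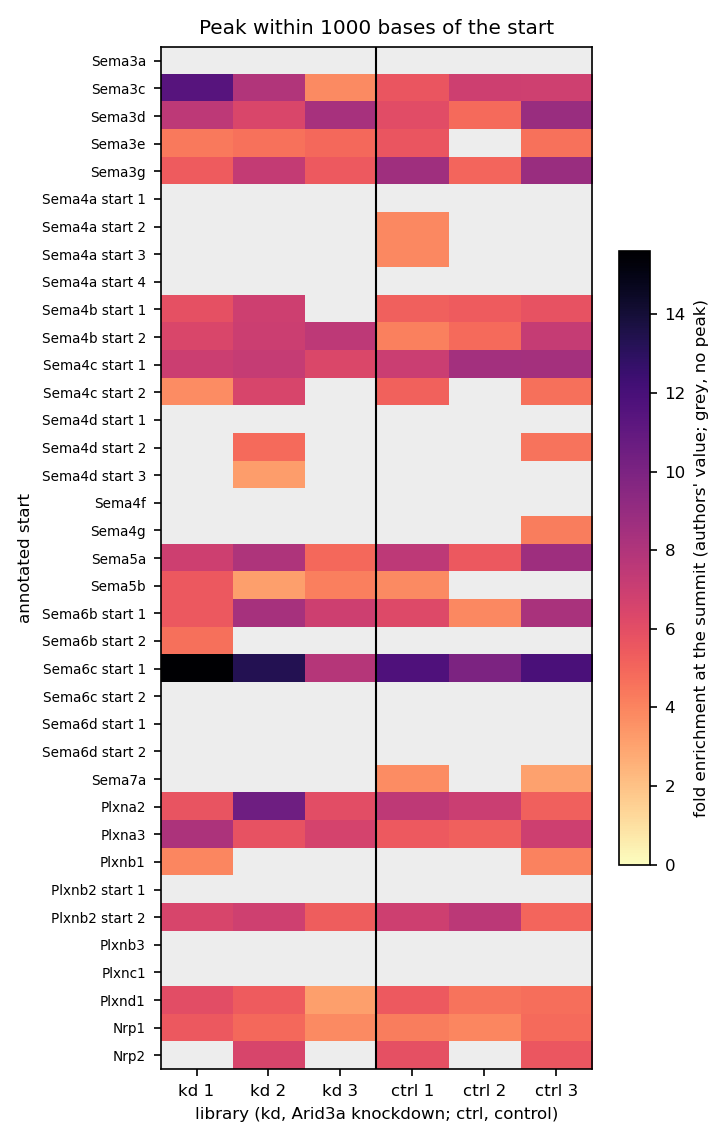
Rows are the 37 annotated starts of 26 genes, columns are the 3 Arid3a knockdown and the 3 control libraries, and colour gives the authors' fold enrichment at the summit of the strongest peak within 1000 bases (grey, no peak). Sema6c start 1 is the darkest row, with folds of 7.83 to 15.6 in knockdown and 9.94 to 11.9 in control libraries, and no row is filled in all libraries of 1 group and empty in the other.

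Between the groups, the family as a whole held similar numbers of peaks. The knockdown libraries had 175, 178 and 142 peaks in the 31 windows and the control libraries 185, 116 and 189. The means were 165 ± 20 and 163.3 ± 41 (SD, n = 3 each), a difference of 1.67 peaks (knockdown minus control) with an exact two-sided permutation p of 1. With 20 relabellings of the 6 libraries, 0.1 is the smallest p that this design allows. Peaks covered 63.5, 69.44 and 51.64 kb in knockdown libraries and 69.35, 45.14 and 72.53 kb in control libraries, with means of 61.53 ± 9.06 and 62.34 ± 15 kb (SD, n = 3 each; difference −0.809 kb, exact permutation p = 1). Open promoters numbered 18, 19 and 16 in knockdown libraries and 21, 14 and 21 in control libraries (difference −1, exact permutation p = 0.8). In each of these measures the groups overlapped, and control replicate 2, the shallowest library, had the lowest value of all 6. In bulk nuclei, fewer cells with an open site and less opening per cell cannot be told apart. The sign of each difference turned when single libraries were left out: peaks gave −22 without control replicate 2, −3.33 without knockdown replicate 1 and −4.83 without knockdown replicate 2, covered length gave 4.13 kb without knockdown replicate 3, 2.7 kb without control replicate 1 and 4.29 kb without control replicate 3, and open promoters gave 0.167 without control replicate 1 or 3.

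As a share of all peaks of the library, the family took 0.3462%, 0.3471% and 0.3411% in knockdown libraries, against 0.3604%, 0.3489% and 0.3628% in control libraries. Every knockdown value lay below every control value. The means were 0.3448 ± 0.00325% and 0.3574 ± 0.00745% (SD, n = 3 each), a difference of −0.0126 percentage points with an exact permutation p of 0.1, the smallest possible, and 0.4 after Benjamini-Hochberg adjustment over the 4 measures. Among peaks with a −log10 q of at least 5 the difference was −0.00233 points (exact permutation p = 0.9), and in lists cut to the same length it was −0.012 points (exact permutation p = 0.3).

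**Figure D3:**
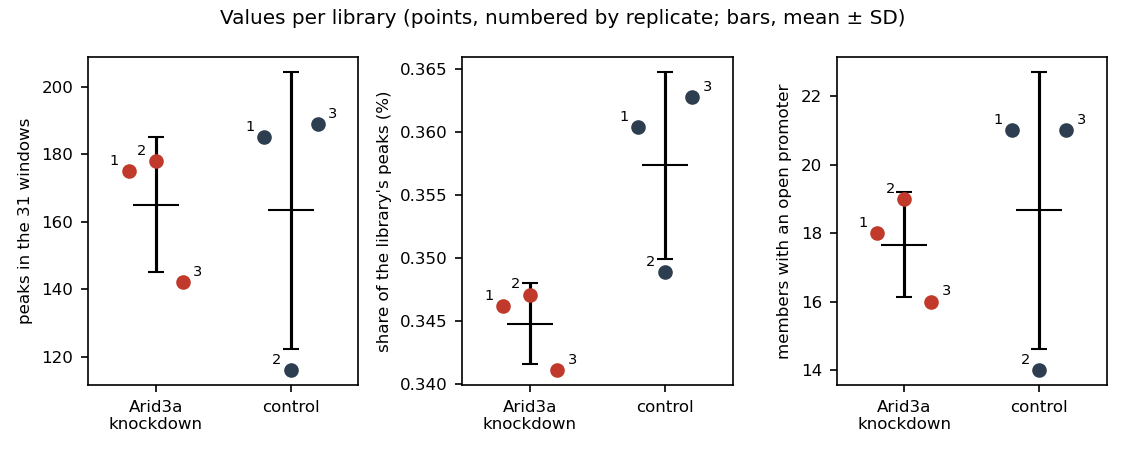
Points are libraries numbered by replicate, with Arid3a knockdown left of control, and bars give the mean ± SD of peaks in the 31 windows, of their share of the library's peaks in percent, and of members with an open promoter; the axes do not start at 0. Knockdown and control points overlap in the first and last panels, and in the middle panel the 3 knockdown shares (0.3411 to 0.3471%) sit below the 3 control shares (0.3489 to 0.3628%).

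No single member separated the groups by its number of peaks. Genes with more peaks in every knockdown than in every control library made up 1.16% of the 17734 genes with a peak in the window, and genes with fewer made up 0.66%. None of the 31 members was among either. The mean was higher in knockdown for 16 members, lower for 13 and equal for 2. Unadjusted exact permutation p-values of members ran upward from 0.2 (Nrp1), none of the 17734 genes could go below 0.1, and every p adjusted over all genes by Benjamini-Hochberg was 1. Leaving out a library can only keep or raise such counts, by the rule. Members with more peaks in every knockdown library numbered 1, 4 and 2 without knockdown replicate 1, knockdown replicate 3 and control replicate 1. Members with fewer numbered 2 without control replicate 2. Over all genes these settings gave 439, 982 and 680 with more and 1049 with fewer, against 206 and 117 with all 6 libraries.

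**Figure D4:**
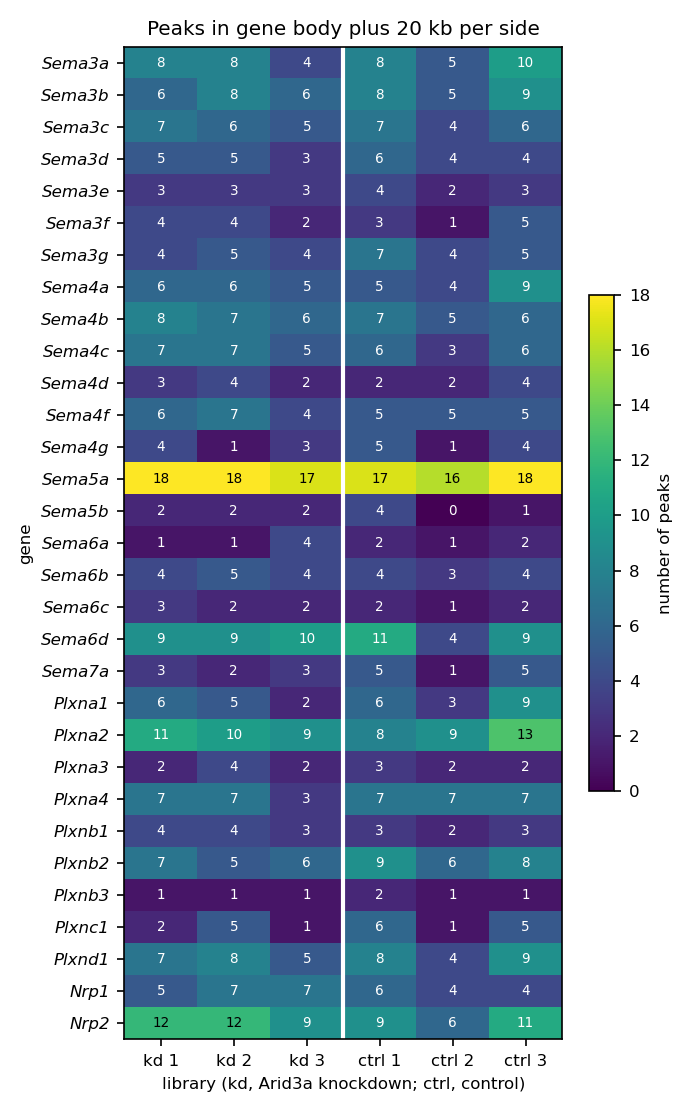
Rows are the 31 genes by role, columns are the 3 Arid3a knockdown (kd) and 3 control (ctrl) libraries, and each cell gives the number of peaks in the gene body plus 20 kb per side. Sema5a is the fullest row with 16 to 18 peaks in each library, and in no row do the 3 knockdown cells all exceed or all fall short of the 3 control cells.

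The 7 secreted ligands held 59 regions, 17 of them (28.8%) in 6 of 6 libraries, and 37, 39 and 27 peaks in knockdown libraries against 43, 25 and 42 in control libraries. None of these regions was specific to a group. Sema3c, which acts with neuropilins and Plxnd1 in outflow tract septation, had 7, 6 and 5 peaks in knockdown libraries and 7, 4 and 6 in control libraries. Its promoter peak had fold enrichments over the local background of 11.4, 7.94 and 3.79 in knockdown libraries and 5.63, 6.9 and 6.85 in control libraries. Such folds, and each −log10 q below, are the authors' own for a peak within its library, and they serve here only to describe and rank peaks. The Sema3c summits lay between −269 and −56 bases from the start, within or just before the printed stretch. Its strongest constitutive region lay 18.4 kb upstream, at chr5:17556082-17556451, with a smallest −log10 q of 14.1.

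Sema3d, a class 3 ligand that acts on endothelial cells and neural crest, had 5, 5 and 3 peaks in knockdown libraries and 6, 4 and 4 in control libraries. Its promoter summits lay 269 to 432 bases downstream of the start, beyond the AT-richer stretch printed above. Sema3g, a ligand made by arterial endothelium, had 4, 5 and 4 peaks in knockdown and 7, 4 and 5 in control libraries. Its window held 4 constitutive regions, the strongest (smallest −log10 q of 17) at chr14:31197929-31198451, inside the neighbouring gene Nisch.

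Sema3a, the axon repellent that signals through Nrp1 and A-type plexins, had no peak at its listed start but 3 constitutive regions inside the gene. The strongest, at chr5:13364979-13365440 and 31.6 kb from that start, had folds of 13.1, 15.3 and 12.5 in knockdown libraries and 12.2, 7.6 and 13.1 in control libraries. The next, at chr5:13399109-13399555, lay 2.55 kb from the start, with folds between 5.41 and 10.9 in the 6 libraries. The gene had 8, 8 and 4 peaks in knockdown libraries and 8, 5 and 10 in control libraries.

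Sema3e, which binds Plxnd1 without a neuropilin, was the sparsest gene of the family, with 1.84 regions per 100 kb and none in 6 of 6 libraries. Its promoter had a peak in 3 of 3 knockdown and 2 of 3 control libraries. The summits held 5, 5 and 5 tags in knockdown libraries and 8 and 6 in control replicates 1 and 3, with none called in the shallow control replicate 2. Sema3b and Sema3f, which lie near each other on chromosome 9 and signal through neuropilins, had 6, 8 and 6 and 4, 4 and 2 peaks in knockdown libraries, against 8, 5 and 9 and 3, 1 and 5 in control libraries. Sema3b had 4 constitutive regions, none of them inside the gene, and the strongest lay at the promoter of Ifrd2 (chr9:107587450-107588107, smallest −log10 q of 8).

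The 12 membrane ligands held 131 regions, of which 24 (18.3%) were in 6 of 6 libraries. They had 71, 69 and 64 peaks in knockdown libraries and 70, 45 and 70 in control libraries. The 6 class 4 genes held 49 regions, 13 (26.5%) of them constitutive. Sema4b and the Plxnb2 ligand Sema4c each had a start that was open in 6 of 6 libraries and another open in fewer. For Sema4b the internal start at 80198588 on chromosome 7 was open in 6 libraries and the outer one at 80186870 in 5, all but knockdown replicate 3. For Sema4c the starts at 36557557 and 36558381 on chromosome 1 were open in 6 and 4 libraries, the second in 2 knockdown and 2 control libraries.

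Sema4b had 8, 7 and 6 peaks in knockdown libraries and 7, 5 and 6 in control libraries, and its strongest constitutive region (chr7:80166758-80167105, smallest −log10 q of 19.5) lay 19.8 kb upstream. Sema4c had 7, 7 and 5 peaks in knockdown libraries and 6, 3 and 6 in control libraries, and its strongest region (chr1:36546786-36547664, smallest −log10 q of 15.5) was the promoter of Ankrd39. Sema4f, a membrane ligand of the nervous system, had no promoter peak in any library, and 6, 7 and 4 peaks in knockdown libraries against 5, 5 and 5 in control libraries. Its window held the region with the highest smallest −log10 q of all 312, 26.5, at chr6:82908989-82909732, 2.15 kb beyond the gene's end. The folds there were 19, 14 and 13.3 in knockdown libraries and 14.1, 12.8 and 14.3 in control libraries, and the summits held 33 tags or more in each.

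Sema4a, known from immune cells, had 3 constitutive regions and 6, 6 and 5 peaks in knockdown libraries against 5, 4 and 9 in control libraries. Of its 4 listed starts, 2 near each other shared a single peak, called in control replicate 1 alone. Its strongest constitutive region (chr3:88424566-88425359, smallest −log10 q of 5.81) lay at the promoter of Slc25a44. Sema4d, the ligand of Plxnb1, had no constitutive region. It had 3, 4 and 2 peaks in knockdown libraries and 2, 2 and 4 in control libraries. Sema4g had 4, 1 and 3 peaks in knockdown libraries and 5, 1 and 4 in control libraries, and its 1 constitutive region was the promoter of Mrpl43 and Twnk.

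Sema5a and Sema5b carry thrombospondin repeats beside the semaphorin domain. Sema5a had 18, 18 and 17 peaks in knockdown libraries and 17, 16 and 18 in control libraries. Its 6 constitutive regions all lay inside the gene and comprised the promoter and 5 further sites 61.9 to 157 kb from the start. The strongest, at chr15:32322600-32323232 and 78.1 kb from the start, had folds of 15.8, 15.4 and 13 in knockdown libraries and 12, 8.73 and 10.7 in control libraries. Of the 36 regions of Sema5a, 14 were present in 1 library only. Sema5b had 2, 2 and 2 peaks in knockdown libraries and 4, 0 and 1 in control libraries, and no constitutive region.

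The 4 class 6 genes, whose products bind A-type plexins, held 40 regions, 5 of them (12.5%) constitutive. Sema6c had the strongest promoter of the family, with folds of 15.6, 13.3 and 7.83 in knockdown libraries and 11.7, 9.94 and 11.9 in control libraries at the start at 95160420 on chromosome 3. Its second listed start, at 95164339, had no peak in any library. Sema6b was open in 6 libraries at its internal start (56133852 on chromosome 17) and in knockdown replicate 1 alone at its outer start. Sema6c had 3, 2 and 2 peaks in knockdown libraries and 2, 1 and 2 in control libraries, and Sema6b had 4, 5 and 4, against 4, 3 and 4. Sema6a had no constitutive region and no promoter peak, with 1, 1 and 4 peaks in knockdown libraries and 2, 1 and 2 in control libraries. Sema6d, a ligand of Plxna1 in the heart, was the longest member (578 kb) and had no peak at either listed start. It had 9, 9 and 10 peaks in knockdown libraries, against 11, 4 and 9 in control libraries.

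Sema7a, the GPI-anchored ligand that binds integrin beta 1 and Plxnc1, had 3, 2 and 3 peaks in knockdown libraries and 5, 1 and 5 in control libraries. None of its 6 regions was in 6 of 6 libraries. Its promoter had no peak in the knockdown libraries and weak peaks in control replicates 1 and 3, with folds of 3.77 and 3.09, −log10 q of 2.36 and 1.38, and 7 and 6 summit tags.

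The 9 plexins held 85 regions, 20 (23.5%) in 6 of 6 libraries, and 47, 49 and 32 peaks in knockdown libraries against 52, 35 and 57 in control libraries. Among the A-type plexins, the signalling partners of neuropilins, Plxna2 had 11, 10 and 9 peaks in knockdown libraries and 8, 9 and 13 in control libraries. All 6 of its constitutive regions lay inside the gene, and the strongest, at chr1:194660438-194660960, had folds of 13.2, 14.7 and 12.3 in knockdown libraries and 11.5, 8.49 and 10.2 in control libraries. Plxna1 had 6, 5 and 2 peaks in knockdown libraries and 6, 3 and 9 in control libraries, and its 2 constitutive regions lay inside the gene. Plxna3, on chromosome X, had an open promoter in 6 of 6 libraries with folds of 5.24 to 8.12, and 2, 4 and 2 peaks in knockdown libraries against 3, 2 and 2 in control libraries.

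Plxnb2, a receptor for class 4 ligands, was the densest member, with 19.6 regions per 100 kb. It had 7, 5 and 6 peaks in knockdown libraries and 9, 6 and 8 in control libraries, and the groups overlapped. Its start at 89180788 on chromosome 15 was open in 6 of 6 libraries with 18 to 35 summit tags, and its other start, at 89173951, was closed in all. The strongest region in its window was the promoter of Dennd6b (chr15:89195797-89196882, smallest −log10 q of 18.1). Plxnb1, the Sema4d receptor, had 4, 4 and 3 peaks in knockdown libraries and 3, 2 and 3 in control libraries, and a promoter peak in 1 library of each group. Plxnb3 had 1 peak in every library but control replicate 1, which had 2, and no region inside the gene.

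Plxnc1, the Sema7a receptor, had a GC-rich start without a peak in any library. It had 2, 5 and 1 peaks in knockdown libraries and 6, 1 and 5 in control libraries. Its 1 constitutive region lay 1.21 kb beyond the gene's end, inside Cep83 (chr10:94789104-94789660, folds of 11.1, 12.8 and 10.9 in knockdown libraries and 18.6, 10.7 and 15.1 in control libraries). Plxnd1, the vascular receptor for Sema3e, had 7, 8 and 5 peaks in knockdown libraries and 8, 4 and 9 in control libraries. Its promoter was open in 6 of 6 libraries. The summits lay between −309 and −116 bases from the start in 5 libraries and at 517 in knockdown replicate 3, whose peak had a fold of 3.11 and lay in a separate region. The strongest constitutive region in its window (chr6:115943649-115944567, smallest −log10 q of 13) lay 10.2 kb downstream at the promoter of H1f8.

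Nrp1, the co-receptor for Sema3a and VEGF, had 5, 7 and 7 peaks in knockdown libraries and 6, 4 and 4 in control libraries. The means of 6.33 and 4.67 peaks differed by 1.67 (exact permutation p = 0.2), and the groups overlapped. The promoter was open in 6 of 6 libraries with folds of 5.52, 4.91 and 3.79 in knockdown libraries and 4.22, 3.92 and 4.82 in control libraries. A further constitutive region lay 1.63 kb before the start (chr8:128357206-128357673), and it was the strongest of the 3, with a smallest −log10 q of 4.12.

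Nrp2, the co-receptor for Sema3f and VEGF-C, had 12, 12 and 9 peaks in knockdown libraries and 9, 6 and 11 in control libraries (difference of means 2.33, exact permutation p = 0.3). Its promoter, the GC-richest of the printed receptors, had a peak in knockdown replicate 2 and in control replicates 1 and 3, with folds of 6.48, 5.91 and 5.58 and 22, 19 and 19 summit tags. In the other 3 libraries no peak was called within 1000 bases of the start. All 3 constitutive regions of Nrp2 lay inside the gene, 3.37, 18.7 and 60.7 kb from the start. The strongest, at chr1:62763671-62764335, had folds of 10.3, 8.06 and 6.84 in knockdown libraries and 9.27, 6.79 and 8.14 in control libraries.

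Of the 312 regions, 2 (0.641%) were present in 3 of 3 knockdown and 0 of 3 control libraries, against 0.432% of all regions, and 2 (0.641%) showed the opposite pattern, against 0.277%. Each share rests on 2 regions, and nothing particular to the family can be read from it. Genes with a knockdown-only region in the window made up 1.96% of all genes and here were Plxnd1 and Sema6d, and genes with a control-only region made up 1.24% and here were Plxna4 alone. With 3 libraries against 3, a region on its own cannot pass below p = 0.1 in an exact test. The rule is easier to meet with a library left out. Knockdown-only regions then numbered 5, 6 and 4 without knockdown replicate 1, knockdown replicate 3 and control replicate 1. Control-only regions numbered 12 and 4 without control replicates 2 and 1. Over the genome the same settings gave 884, 1568 and 1065 knockdown-only and 1565 and 609 control-only regions.

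Both control-only regions lay inside Plxna4, a receptor that mediates Sema3a and class 6 signals. At chr6:32415689-32416154 no knockdown library had a peak, and the control libraries had folds of 7.28, 6.39 and 7.71, −log10 q of 8.13, 6.36 and 8.95 and 9, 7 and 10 summit tags. The nearest peaks of the knockdown libraries lay 14.8, 14.7 and 14.8 kb away, in the gene's 1 constitutive region (chr6:32400166-32400979), where the folds were 9.25, 8.6 and 9.06 in knockdown libraries and 9.56, 7.87 and 8.05 in control libraries. The region was control-only among peaks with a −log10 q of at least 5, in lists of equal length, and where peaks had to cover 50% of a region. These settings only take away peaks or presence calls. They bear on the control peaks and could not add a knockdown peak, so the absence in knockdown libraries was not tested by them. Leaving out any single library also kept the call, but this follows from the rule, and the group-specific regions described next kept theirs too.

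The second region, at chr6:32328004-32328502, also had no knockdown peak, and control folds of 5.48, 6.18 and 5.03 with 7, 7 and 6 tags. The nearest knockdown peaks were 44.2, 63.2 and 71.9 kb away. It was not called control-only at a −log10 q of 5, which 2 of its 3 peaks miss, nor in lists of equal length. In all, Plxna4 had 7, 7 and 3 peaks in knockdown libraries and 7 in each control library.

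The knockdown-only region of Plxnd1, at chr6:116010638-116010990, lay 15.3 kb upstream. Its folds were 4.77, 5.96 and 3.87 in knockdown libraries, with 8, 10 and 5 tags, and no control library had a peak there. Control replicates 1 and 3 had peaks 3.6 kb away. The knockdown-only region of Sema6d, at chr2:124684543-124684895, lay 16.8 kb downstream, with folds of 4.29, 5.06 and 2.67 and 4, 5 and 2 tags in knockdown libraries and no peak in control libraries. Neither was called knockdown-only among peaks with a −log10 q of at least 5 or in lists of equal length, and the region of Plxnd1 was not called where peaks had to cover 50% of it.

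**Figure D5:**
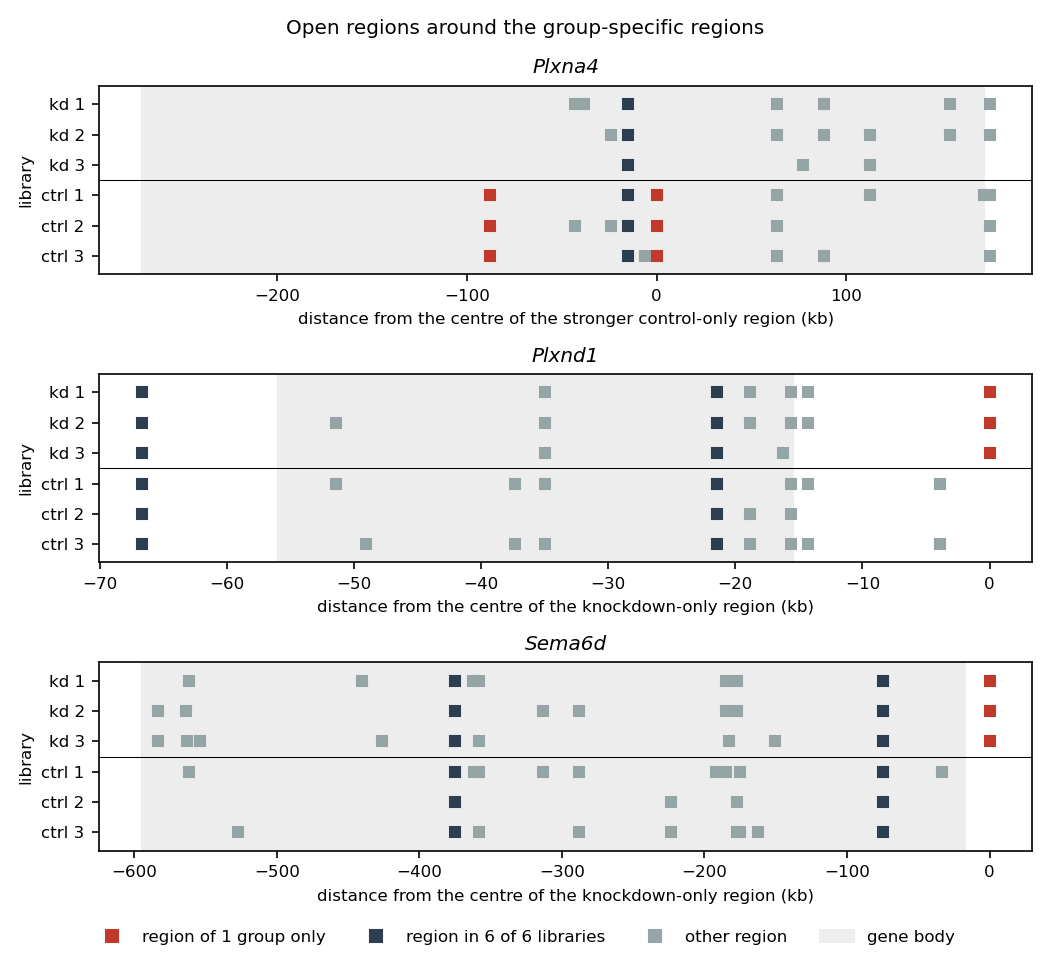
Squares mark the open regions of each library along Plxna4, Plxnd1 and Sema6d, with knockdown rows above control rows and distance in kb from a group-specific region on the horizontal axis. The red squares of Plxna4 fill the 3 control rows, those of Plxnd1 and Sema6d fill the 3 knockdown rows outside the gene body, and the dark squares mark regions in 6 of 6 libraries.

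Other regions missed this rule by 1 library. Present in 2 knockdown and 0 control libraries were 7 regions (2.24%, against 2.56% of all regions), and present in 0 knockdown and 2 control libraries were 12 (3.85%, against 2.35%). The regions named next were chosen after their values were seen. Present in 3 knockdown libraries and 1 control library were 3 regions (0.962%, against 1.72% of all regions). At chr3:88422075-88422543, 13.4 kb beyond Sema4a and inside Slc25a44, the folds were 9.11, 7.53 and 8.32 in knockdown libraries and 9.16 in control replicate 3. At chr7:80191489-80191870, inside Sema4b, they were 6.43, 9.96 and 6.92 in knockdown libraries and 7.09 in control replicate 1. The remaining one was the promoter of Sema5b (chr16:35540418-35541438), with weak folds of 5.54, 3.15 and 4.19 in knockdown libraries and 3.83 in control replicate 1. Present in 1 knockdown and 3 control libraries were 2 regions (0.641%, against 1.09%), inside Sema3a (chr5:13229482-13230028) and Sema5a (chr15:32415353-32415673), with 5 and 8 summit tags in the knockdown library and 2 to 11 in the control libraries.

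Of 41 genes that act with or downstream of these receptors, 19 (46.3%) had an open promoter in 6 of 6 libraries, against 37.4% of all genes, and 5 (12.2%) in none, against 41.2%. The open ones included the MICAL monooxygenases Mical1, Mical2 and Mical3, which oxidise actin, the FERM-domain exchange factors Farp1 and Farp2, the plexin-binding GTPases Rnd1, Rac1 and Rras, the kinases Fyn, Cdk5, Gsk3b and Limk1, the co-receptors Met and Erbb2, and Vegfa with its receptor Flt1. The collapsin response mediators Crmp1 and Dpysl4 and the scaffold Gipc1 were among those without a promoter peak. No gene of this list had more peaks in every knockdown library than in every control library, and none had fewer. It held 1 knockdown-only region, at Gsk3b, and 1 control-only region, at Dpysl4, where 1.96% and 1.24% of all genes had such a region.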

How the data were processed

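ATAC-seq was run on 3 Arid3a knockdown and 3 control libraries of mouse VSMCs, each of 50000 cells per the labels' protocols. The submitters' processing notes name Bowtie2, Picard, MACS2 and the build mm10; versions, settings, duplicate handling and Tn5 offset correction are not given in the sources used. The authors deposited a separate peak list for each library. Per the deposited values, each peak has a fold enrichment (a ratio over the local background), a −log10 p and a −log10 q value, a score that is 10 times the −log10 q cut to a whole number, and a summit offset. The smallest −log10 q was near that of a q of 0.05 in each list. Peak values are scaled within a library, so they were not compared between groups.

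Peaks from any library that shared at least 1 base were merged into a region, and genes took their windows from a RefSeq table of GRCm38.p6. A promoter was 1000 bases on each side of a listed start, or of either gene end for the 4395 genes without one. Tags at summits and in the background were estimated from fold and −log10 p under the Poisson model of MACS2. Library depth followed from the background tags, with the default mouse genome size of MACS2 assumed. The shortest peak of each library, 164 bases in knockdown replicate 1 to 210 in control replicate 2, was taken as the fragment length. Depths therefore serve only to rank libraries. Values per library were tested by exact permutation (two-sided, 20 relabellings). Samples were grouped by their treatment label. Chromosomes 1 to 19, X and Y were used.

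Members, gene lists and tests were chosen with earlier results of these data known. Named with values were members with a group-specific region, the 6 with the most constitutive regions (4 led and 9 tied at 3, and all were given), members with none, and all members by promoter state. The strongest constitutive region was the one with the highest smallest −log10 q over libraries. Merging, presence calls, gene counts and the permutation test were tested on simulated data. Alternatives were other q cutoffs, lists of equal length, the 4 deepest libraries, other windows, peak cover, scaling per 10000 peaks and leaving out each library. Python 3.11.15, pandas 2.3.3, numpy 2.4.6, scipy 1.17.1 and matplotlib 3.10.9 were used. Sequences under the peaks were not analysed here. Promoter counts of the leukocyte and neural marker lists are not reported here.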

Additional observations from a re-analysis of the deposited data

How the results depend on the processing

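Differences are knockdown minus control. The lower share of peaks kept its sign at a −log10 q of 5 or more (−0.00233 points) and in lists of equal length (−0.012). It also did so for gene bodies alone (−0.0124) and with 50 kb on each side (−0.0196). Leaving out libraries could not turn this sign, since every knockdown share lay below every control share. The difference was −0.0168 to −0.00983 without single libraries and −0.0149 in the 4 deepest. Leaving out each library gave differences of −22 to 14.5 peaks, −9.41 to 4.29 kb and −3.33 to 0.167 open promoters, with 2 to 6 knockdown-only, 2 to 12 control-only and 68 to 83 constitutive regions, and 0 to 4 members with more and 0 to 2 with fewer peaks in every knockdown library. Over all regions and genes these ranges were 478 to 1568, 394 to 1565, 21098 to 25924, 275 to 982 and 196 to 1049, in the order knockdown-only, control-only, constitutive, more and fewer. At a −log10 q of 5 or more the differences were 0.629 kb and 0.333 open promoters, with 1 knockdown-only (Sema4f), 1 control-only (Plxna4) and 42 constitutive regions, and 1 member (Plxna1) had fewer peaks in every knockdown library (all regions and genes: 170, 75, 13663 and 32). In lists of equal length the difference was −4 peaks, with 0 knockdown-only and 1 control-only region and 1 member (Sema5a) with fewer peaks (all: 281, 240 and 192). In the 4 deepest libraries it was −10.5 peaks, with 6 knockdown-only, 13 control-only and 106 constitutive regions and 4 members with more and 3 with fewer peaks (all: 1881, 2080, 30999, 1117 and 1350). Gene bodies alone gave −0.333 peaks, 0 knockdown-only and 40 constitutive regions, and 50 kb on each side gave 109 constitutive regions and 1 member (Plxnb1) with more peaks (292 of all genes). Where peaks had to cover 50% of a region, there were 1 knockdown-only (Sema6d), 3 control-only and 34 constitutive regions (all: 429, 348 and 11696). The control-only regions then included chr6:115989095-115989683 inside Plxnd1, which was present in 6 of 6 libraries by the main rule. Per 10000 peaks of the library, 4 members (Sema4c, Sema6c, Plxnb1, Nrp2) had more and 1 (Plxnb2) fewer peaks in every knockdown library, against 1196 and 505 of all genes. Fewer libraries or shorter windows change such counts by construction; other causes were not tested. Same-numbered libraries did not deviate together (r = 0.0386, −0.0922 and −0.0933 over 17734 genes), and the labels do not say whether the numbers pair them. These r cannot decide it, since the highest of any pair (0.144) joined knockdown replicate 3 and control replicate 2, the shallowest of their groups. A replicate block gave exact p-values of 1, 0.25, 1 and 1 for peaks, share, covered length and open promoters. There 0.25 is the smallest possible, and the differences stay 1.67, −0.0126, −0.809 and −1. Of the 67 constitutive regions, 16 had their smallest −log10 q in knockdown replicate 3 and 44 in control replicate 2, the shallowest libraries of their groups; the part of depth was not tested.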

Other observations

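Promoters of other guidance families were counted in the same cells. Over all genes, 37.4% had a promoter peak in 6 of 6 libraries and 41.2% in none, and differences from these shares were not tested. Of the 7 Slit and Robo genes, 1 (Slit1, 14.3%) had a promoter peak in 6 of 6 libraries and 2 (28.6%) in none. Slit3, a secreted Robo ligand, had no promoter peak but 38 open regions in its window, 8 of them in 6 of 6 libraries. Of the 10 netrins and netrin receptors, 3 (Ntn4, Neo1, Unc5b, 30%) were open in 6 of 6 libraries and 4 (40%) in none. Of the 22 ephrins and Eph receptors, 7 (31.8%) were open in 6 of 6 and 6 (27.3%) in none. Among the 7 were Efnb2, the ephrin of arteries, and Ephb4, its receptor on veins.

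Ntn4, a basement membrane netrin, had 7, 7 and 9 peaks in knockdown libraries, against 5, 5 and 5 in control libraries, so the groups did not overlap, as for 1.16% of genes. It was the only gene of these 3 families with more peaks in every knockdown library, and none had fewer. The families held 0 knockdown-only regions and 1 control-only region, at Ephb2, where 1.96% and 1.24% of all genes had a region of these kinds.

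Among the cell type markers, Emcn (endothelial) had 1 peak in each knockdown library and 2 in each control library. Sox10 (Schwann cell) had 3 in each knockdown library and 2 in each control library. Over all genes with a peak in the window, 0.66% had fewer and 1.16% more peaks in every knockdown library. Each of these 2 genes was the only one of its list of 6 to separate the groups, by 1 peak, so no shift of a cell type can be read from them. Both had a closed promoter in 6 of 6 libraries. Their part in the results above was not tested.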
